A study of Mus musculus with 6 samples.

Results

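Cytochrome c oxidase, or complex IV, has subunits that are encoded in the mouse by isoform genes with different tissue distributions. The 10 genes of 5 such pairs are described here in brown adipose tissue (BAT) of wild-type and Letmd1 KO mice. They are Cox4i1 and Cox4i2, Cox6a1 and Cox6a2, Cox6b1 and Cox6b2, Cox7a2 and Cox7a1, and Cox8a and Cox8b, the broadly expressed isoform being given first in each pair. The genes were picked by symbol with the genotype differences of these same 6 mice already known, so their fold changes and isoform ratios between genotypes are given as a description, without a test. All 10 were present among the 23282 gene rows of the count tables, and all 10 passed the filter on low counts, which kept 12995 genes. Cox6a2 passed that filter only because of its counts in the Letmd1 KO mice.

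Interscapular BAT was taken from 3 wild-type and 3 Letmd1 KO male mice of strain C57BL/6N at 5 weeks of age, and 1 library per mouse was made with a 3′-end RNA-sequencing kit. LETMD1 is a protein of the mitochondrial matrix. The Letmd1 KO mice carried a knockout-first allele, in which a cassette with lacZ and a neomycin resistance gene sits in an intron of Letmd1, in every tissue, and the line came from 1 embryonic stem cell clone. No Cre line was used, so the loss of Letmd1 was not restricted to brown adipocytes. Apart from the allele, both groups shared strain, sex and age. Libraries held between 6669577 and 14574273 counts, the highest and the lowest both being Letmd1 KO mice. Counts of Letmd1 itself were 5658, 6490 and 5266 for wild-type replicates 1 to 3, against 0, 0 and 1 for Letmd1 KO replicates 1 to 3.

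Levels below are in CPM after TMM scaling, in which each count is divided by an effective library size that a few very abundant genes affect little. A 3′-end kit reads only the end of each transcript, whatever its length, so CPM were compared between genes without dividing by length. Of the 12995 genes tested with edgeR's quasi-likelihood test, 22.3% (2896) passed an adjusted p of 0.05 as lower in Letmd1 KO BAT and 23.7% (3082) as higher. With library size alone as the scale, this split became 1368 lower and 5899 higher, and the median gene moved from a log2 fold change of 0.03 to 0.45. Defining brown adipocyte transcripts were present in both genotypes. In the list of 10 brown adipocyte markers, which also holds general adipocyte genes such as Fabp4, 8 were lower in Letmd1 KO BAT, and its summed level was 39846 to 45241 CPM in wild-type and 12387 to 16063 CPM in Letmd1 KO mice. Fabp4 dominated that sum at a mean of 28020 and 10462 CPM. The mean of Ucp1 was 16.6-fold lower and that of Elovl3, a fatty acid elongase of brown fat, 22.9-fold. Elovl3 had 7, 22 and 6 counts in the Letmd1 KO mice and passed the filter on low counts only because of its wild-type counts. The 2 markers that did not pass the test were Ebf2 and Pparg. Mean levels in wild-type and Letmd1 KO mice were 165 and 167 CPM for Ebf2 and 516 and 457 CPM for Pparg. In bulk tissue, fewer brown adipocytes and less RNA per brown adipocyte cannot be told apart. Markers of macrophages moved the other way, all 7 being higher, from 109 to 146 CPM summed in wild-type to between 948 and 2720 CPM in Letmd1 KO mice. The part of either cell type in the results below was not tested.

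Complex IV is the last enzyme of the respiratory chain: it takes electrons from cytochrome c, passes them to oxygen and pumps protons across the inner mitochondrial membrane. Its catalytic core is encoded by mitochondrial DNA and is surrounded by small subunits encoded in the nucleus, some of which exchange a broadly expressed isoform for another one in heart, skeletal muscle, lung or testis. Brown adipocytes, which burn fuel for heat with uncoupling protein 1 (UCP1), express the muscle-type isoforms of subunits 7a and 8, and Cox7a1 and Cox8b are commonly used as brown fat markers.

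Promoter sequences are shown for the 2 pairs of which both isoforms were abundant in BAT, since their isoforms differ in the number of CpG dinucleotides before the start site. RefSeq promoters were matched by symbol for 7 of the 10 genes, and no sequence is printed for Cox4i1, Cox4i2 and Cox6a2. The 250 bases before the annotated start are given on the strand of the gene, in build GRCm38, for Cox7a1 (chr7:30183921-30184170, plus strand), Cox7a2 (chr9:79759854-79760103, minus strand), Cox8b (chr7:140900447-140900696, minus strand) and Cox8a (chr19:7217617-7217866, minus strand). Capitals mark CpG dinucleotides.
Cox7a1: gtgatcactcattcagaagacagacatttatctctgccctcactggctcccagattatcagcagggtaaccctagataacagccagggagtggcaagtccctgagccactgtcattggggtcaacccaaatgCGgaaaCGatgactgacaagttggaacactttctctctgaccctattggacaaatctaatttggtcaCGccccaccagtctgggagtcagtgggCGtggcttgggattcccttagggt
Cox7a2: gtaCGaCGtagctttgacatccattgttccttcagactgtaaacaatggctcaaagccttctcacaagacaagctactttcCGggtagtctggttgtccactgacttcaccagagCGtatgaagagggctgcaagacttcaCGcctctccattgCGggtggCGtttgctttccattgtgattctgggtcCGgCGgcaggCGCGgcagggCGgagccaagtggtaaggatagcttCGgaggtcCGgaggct
Cox8b: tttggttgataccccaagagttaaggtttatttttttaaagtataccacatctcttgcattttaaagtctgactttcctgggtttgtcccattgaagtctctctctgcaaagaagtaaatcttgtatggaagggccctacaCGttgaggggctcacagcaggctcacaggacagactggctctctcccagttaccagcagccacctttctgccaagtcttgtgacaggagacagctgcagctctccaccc
Cox8a: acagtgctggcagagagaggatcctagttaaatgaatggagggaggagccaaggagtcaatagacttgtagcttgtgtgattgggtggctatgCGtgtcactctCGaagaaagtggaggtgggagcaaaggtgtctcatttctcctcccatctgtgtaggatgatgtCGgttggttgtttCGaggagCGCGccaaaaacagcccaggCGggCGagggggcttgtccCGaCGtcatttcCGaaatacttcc

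In both pairs the broadly expressed isoform had more CpG dinucleotides in this window than the muscle-type isoform. Cox7a2 had 14 against 4 in Cox7a1, and Cox8a had 11 against 1 in Cox8b. Over 27025 RefSeq promoters the median was 6, with quartiles of 2 and 16, and 19.4% of promoters had as few as Cox8b while 72.5% had as few as Cox7a2 or fewer. Among the other matched genes Cox6a1 had 26, Cox6b1 had 14 and Cox6b2 had 8. Motifs of 3 factors that act on respiratory genes were searched on both strands of the same window. The estrogen-related receptor motif AAGGTCA, held by 4.05% of all promoters, matched in none of the 7 promoters. The GABPA motif CCGGAAG, held by 7.05%, matched in Cox6a1 and Cox6b1, and the NRF1 motif (GCGC, any 2 bases and GCGC again), held by 5.09%, matched at 2 places in Cox6a1 and in no other member. Such a match is a description of the letters and not of binding.

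In the GENCODE annotation of the same build, 5 of the 10 genes lie on chromosome 7 and the genes are spread over 6 chromosomes. Cox7a1 (7:30184144-30186078, plus strand) ends 430783 bases before Cox6b1 (7:30616861-30626151, minus strand). Cox6a2 (7:128205435-128206387), Cox6b2 (7:4751792-4753094) and Cox8b (7:140898945-140900446) are on the minus strand of the same chromosome. Of the broadly expressed isoforms, Cox6b1 shares chromosome 7 with its partner, while Cox6a1 (5:115345642-115348981), Cox7a2 (9:79755361-79759878) and Cox8a (19:7215153-7217616) lie on other chromosomes than theirs. Cox4i1 is at 8:120668222-120674207 and Cox4i2 at 2:152754173-152765037.

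The isoforms formed an abundant and a rare group, and Cox6a2, rare in wild-type BAT, lay between them in Letmd1 KO BAT. In wild-type BAT the highest level was that of Cox6a1, followed by Cox6b1 and Cox8a, whose mice overlapped, then Cox8b and Cox4i1, which also overlapped, then Cox7a2 and Cox7a1. Cox6b2, Cox4i2 and Cox6a2 were the rare isoforms, with overlap between the last of these. In Letmd1 KO BAT Cox6a1 was still highest, the ranges of Cox8a, Cox4i1, Cox7a2 and Cox6b1 overlapped between neighbours, Cox8b and Cox7a1 overlapped below them, and Cox6a2 stood next, above Cox6b2 and Cox4i2. All Letmd1 KO mice were below all wild-type mice for 8 of the 10 genes, above them for Cox6a2 and overlapping for Cox4i2. The background of that count was 27.2% of all tested genes below and 30.1% above. By the adjusted p, 8 members passed as lower and 1 as higher, counts which the choice of the genes used and from which nothing is read.

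**Figure D1:**
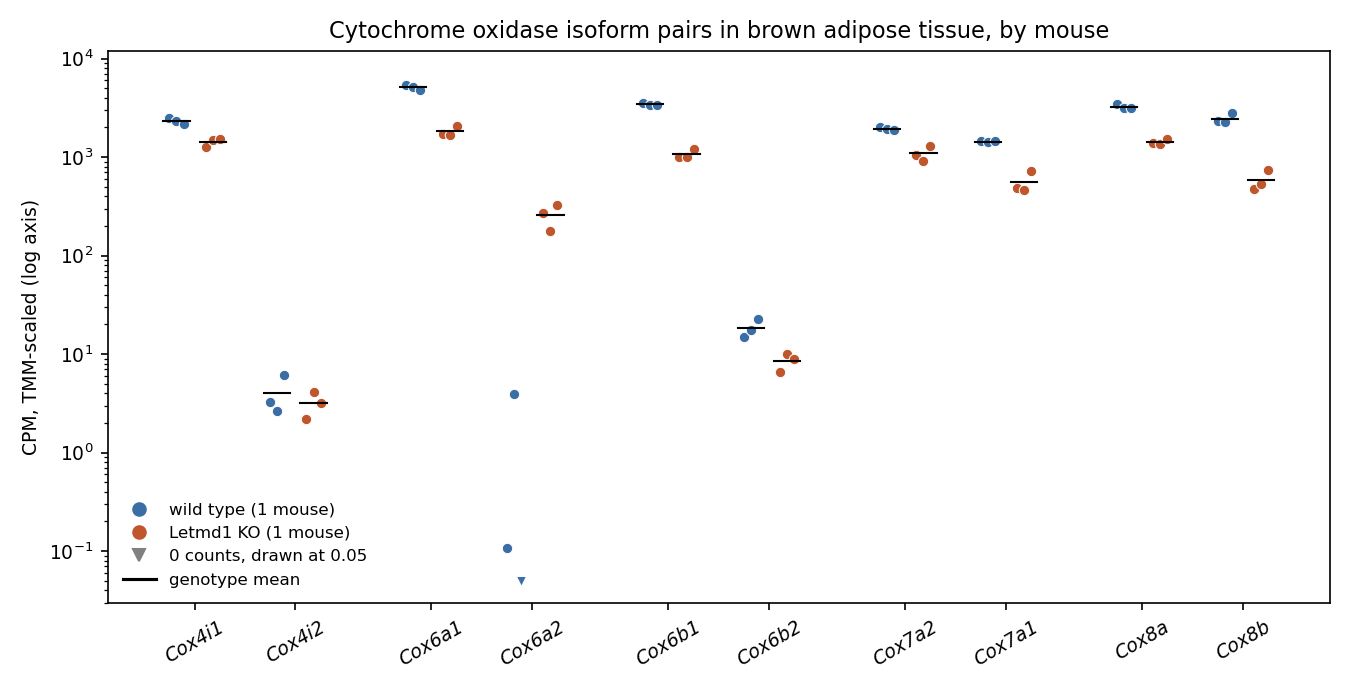
Level of each isoform gene in the 6 mice, in TMM-scaled CPM on a log axis, with 1 point per mouse and a bar at the mean of each genotype, except wild-type Cox6a2, where the mouse with 0 counts is a triangle drawn at 0.05 and no mean is shown. Cox6a2 lay at or below 3.92 CPM in the wild-type mice and between 176 and 323 CPM in the Letmd1 KO mice, while Cox6b1 and Cox8b lay lower in each Letmd1 KO mouse than in any wild-type mouse.

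The pair of subunit 8, a small single-helix subunit with no known catalytic role, shifted away from its muscle-type isoform. Cox8b, the heart, muscle and brown fat isoform, was at 2297, 2278 and 2771 CPM in wild-type replicates 1 to 3 and at 474, 530 and 747 CPM in Letmd1 KO replicates 1 to 3. Cox8a, the broadly expressed isoform, was at 3419, 3111 and 3149 CPM in wild-type and 1392, 1365 and 1540 CPM in Letmd1 KO mice. Both genes were lower in every Letmd1 KO mouse than in any wild-type mouse, and Cox8b by the larger factor. The mean of Cox8b was 4.20-fold lower (2449 ± 280 to 584 ± 145 CPM, SD, n = 3 each; log2 fold change -2.07, standard error 0.19), and that of Cox8a was 2.25-fold lower (3227 ± 168 to 1432 ± 94.2 CPM; log2 fold change -1.17, standard error 0.13). Cox8b therefore made up 40.2%, 42.3% and 46.8% of the counts of its pair in wild-type mice and 25.4%, 28.0% and 32.7% in Letmd1 KO mice. These shares did not overlap, and the counting error of each was at most 0.74 percentage points (reach of the 95% Wilson interval to either side, which like every interval here covers counting error only). Per mouse there were 1.49, 1.37 and 1.14 Cox8a counts for each Cox8b count in wild-type BAT and 2.94, 2.58 and 2.06 in Letmd1 KO BAT, a difference of -0.92 in the mean log2 ratio of Cox8b to Cox8a. Any scale factor common to all genes of a mouse cancels in this ratio.

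The pair of subunit 7a, which lies at the surface where complex IV meets its partners in dimers and respiratory supercomplexes, shifted in the same direction by a smaller amount. Cox7a1, the heart, muscle and brown fat isoform, was at 1442, 1409 and 1439 CPM in wild-type mice and 480, 466 and 723 CPM in Letmd1 KO mice. Cox7a2, the liver-type isoform found in most tissues, was at 2016, 1945 and 1873 CPM in wild-type mice and 1058, 920 and 1293 CPM in Letmd1 KO mice. Neither gene overlapped between genotypes, and wild-type Cox7a1 had the smallest SD of the 7 abundant members. The mean of Cox7a1 was 2.57-fold lower (1430 ± 18.3 to 556 ± 145 CPM; log2 fold change -1.36, standard error 0.18) and that of Cox7a2 was 1.78-fold lower (1945 ± 71.2 to 1090 ± 188 CPM; log2 fold change -0.83, standard error 0.15), but the lower level of Cox7a2 was not seen under quantile normalization, where its log2 fold change was 0.01. The share of Cox7a1 in its pair was 41.7%, 42.0% and 43.5% in wild-type mice and 31.2%, 33.6% and 35.9% in Letmd1 KO mice, again without overlap and with a counting error of at most 0.90 percentage points. The mean log2 ratio of Cox7a1 to Cox7a2 was lower by 0.54, and the ratio itself 1.46-fold, against 1.89-fold for Cox8b to Cox8a.

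The pair of subunit 6a, which sits at the interface of complex IV dimers, differed towards its muscle-type isoform. Cox6a1, the broadly expressed isoform and the most abundant member in both genotypes, was at 5370, 5179 and 4791 CPM in wild-type mice and 1712, 1689 and 2055 CPM in Letmd1 KO mice, 2.81-fold lower in the mean (5113 ± 295 to 1818 ± 205 CPM; log2 fold change -1.49, standard error 0.15). Cox6a2, the heart and skeletal muscle isoform, had 1, 37 and 0 counts in wild-type replicates 1 to 3, compared with 2443, 1331 and 5500 in Letmd1 KO replicates 1 to 3. In CPM, Cox6a2 was at 268, 176 and 323 in the Letmd1 KO mice. All Letmd1 KO mice were thus far above all wild-type mice, and nearly all wild-type counts came from replicate 2. Over summed counts the Cox6a2 level in Letmd1 KO BAT was 191 times that in wild-type BAT (exact 95% interval 139 to 270), and without wild-type replicate 2, which left 1 count, it was 4669 times (838 to 1.84e+05). The fitted log2 fold change of Cox6a2 was 7.48 (standard error 0.71) with all mice and 11.80 without that mouse. Cox6a2 made up 13.6%, 9.44% and 13.6% of the pair's counts in Letmd1 KO mice, or 1 count per 6.38, 9.59 and 6.35 counts of Cox6a1. In wild-type replicates 1 and 2 the share was 0.0020% and 0.0757%, and in replicate 3 there were 0 counts of 36742, which allows a share of up to 0.0082%.

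Cox6a2 was the member with all Letmd1 KO mice above all wild-type mice, and its level was set beside muscle transcripts, since striated muscle is its usual site. The list of 15 skeletal muscle markers held 802, 4913 and 754 counts in wild-type mice and 4352, 2809 and 23099 in Letmd1 KO mice, or 86.5, 521 and 98.3 CPM against 478, 372 and 1358 CPM. Of the 14 markers tested, 3 were higher in Letmd1 KO BAT by edgeR (Myh1, Myh2 and Tnnt1, adjusted p = 0.0323, 0.0346 and 0.0125) and 11 did not pass, with a median log2 fold change of 2.28. Over all genes tested 23.7% were higher, so that count lay near the background. These 3 markers passed the filter on low counts only because of their counts in the Letmd1 KO mice. Myl1, a myosin light chain gene, alone gave 714 of the 802 and 700 of the 754 marker counts in wild-type replicates 1 and 3, and without it, a sum chosen after seeing the data, the list came to 9.49, 391 and 7.04 CPM in wild-type and 415, 301 and 1204 CPM in Letmd1 KO mice. The summed level of wild-type replicate 2 thus lay above that of Letmd1 KO replicate 2 with and without Myl1, and above that of replicate 1 only with it. Wild-type replicate 2 had 0.753 counts of Cox6a2 per 100 muscle marker counts, whereas the Letmd1 KO mice had 56.1, 47.4 and 23.8. Without Myl1 these values were 1.0 and 64.7, 58.6 and 26.9. Against Acta1, the main skeletal muscle actin, which had 6, 776 and 3 counts in wild-type and 694, 521 and 4936 in Letmd1 KO mice, Cox6a2 in wild-type replicate 2 amounted to 4.77 counts per 100 and in the Letmd1 KO mice to 352, 255 and 111 per 100. Wild-type replicate 2, the only wild-type mouse with many Acta1 counts, held more of them than Letmd1 KO replicates 1 and 2 and far fewer Cox6a2 counts. What part muscle tissue had in this was not tested. Among the Letmd1 KO mice Acta1 counts in replicate 3 were the highest, as were Cox6a2 counts, but the Cox6a2 level in CPM varied only 1.84-fold between them.

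**Figure D2:**
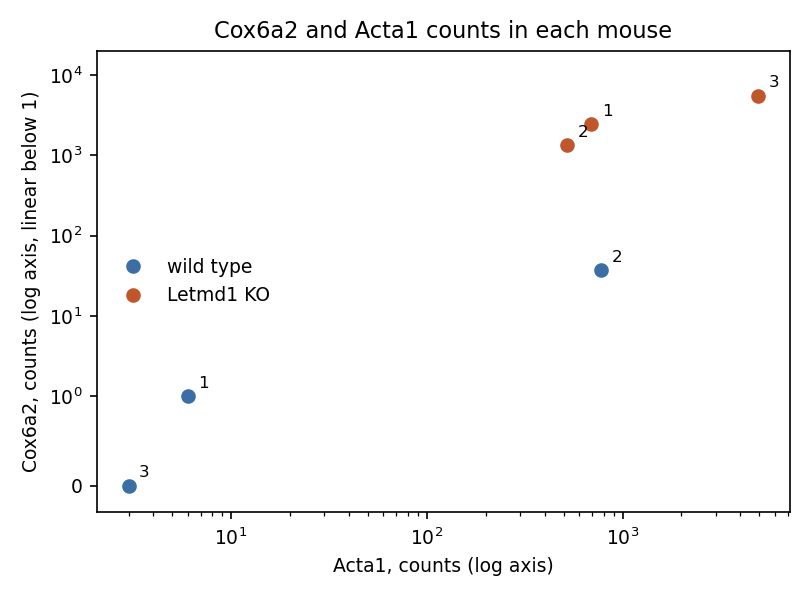
Counts of Cox6a2 against counts of the skeletal muscle actin Acta1 in each of the 6 mice, on log axes (the Cox6a2 axis linear below 1) with 1 point per mouse, coloured by genotype and numbered by replicate. Wild-type replicate 2, with 776 Acta1 and 37 Cox6a2 counts, sits well below the 3 Letmd1 KO mice, which had 521 to 4936 Acta1 counts and 1331 to 5500 Cox6a2 counts.

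Letmd1 KO replicate 3, which had the most muscle marker counts, also had the highest Letmd1 KO level of both muscle-type isoforms Cox7a1 and Cox8b, and of all 5 broadly expressed isoforms. Wild-type replicate 2 had the most muscle marker counts among the wild-type mice. Its levels of Cox7a1 (1409 CPM) and Cox8b (2278 CPM) were the lowest of the wild-type mice, but close to those of replicate 1 (1442 and 2297 CPM). Without wild-type replicate 2 and Letmd1 KO replicate 3, a choice made after seeing the data, the log2 ratio differences were -0.63 for Cox7a1 to Cox7a2 and -1.08 for Cox8b to Cox8a. Of 6 cardiac markers only 2 could be tested, Actc1 and Tnni3, and both were higher in Letmd1 KO BAT. Both passed the filter on low counts only because of their counts in the Letmd1 KO mice, so their direction is given as a description. Actc1 had a log2 fold change of 1.84 (edgeR adjusted p = 0.0360). Tnni3, cardiac troponin I, had 1, 0 and 0 counts in wild-type and 37, 30 and 254 in Letmd1 KO mice (adjusted p = 0.000398). The atrial marker Myl7 was at 0 counts in all mice, and the list summed to 0.755 to 3.82 CPM in wild-type and 7.47 to 23.5 CPM in Letmd1 KO BAT. The part of muscle tissue in the levels of Cox6a2, Cox7a1 and Cox8b was not tested.

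The exons of Cox6a2 overlap those of Itgad, an integrin gene of myeloid cells on the opposite strand, and the sources used here do not state whether reads were counted by strand. Itgad had 0 counts in each wild-type mouse and 160, 86 and 320 in the Letmd1 KO mice, or 6.55, 6.46 and 5.82 per 100 counts of Cox6a2. Both genes were thus high in the same mice, in a proportion that varied little, and without strand their reads cannot be told apart where the exons overlap. A search for identical stretches of 75 bases cannot see a shorter overlap, or one outside the last 500 bases of the transcripts searched. No stretch of 75 bases in the last 500 bases of Cox6a2 coding transcripts recurs in another gene on either strand, Itgad included. The same was found for every other member except Cox6a1, where 7.51% of the stretches recur in 1 other gene, and no stretch is shared between members, so counts of the isoforms of a pair were not exchanged through identical reads of this length.

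Subunit 6b faces the intermembrane space beside the docking site of cytochrome c, and both of its isoforms were lower in Letmd1 KO BAT. Cox6b1, the broadly expressed isoform, was at 3577, 3381 and 3380 CPM in wild-type mice and 992, 998 and 1218 CPM in Letmd1 KO mice, 3.22-fold lower in the mean (3446 ± 114 to 1070 ± 129 CPM; log2 fold change -1.69, standard error 0.14). After Cox8b, this was the largest factor among the members that were lower. Cox6b2, the testis isoform, was at 15.0, 17.6 and 22.6 CPM in wild-type and 6.59, 10.1 and 8.94 CPM in Letmd1 KO mice, 2.15-fold lower (log2 fold change -1.10, standard error 0.23). The share of Cox6b2 was 0.417%, 0.518% and 0.663% in wild-type and 0.660%, 0.998% and 0.729% in Letmd1 KO mice, so the ranges overlapped, and the counting error was up to 0.22 percentage points. None of 6 testis markers could be tested, 3 of them, the sperm chromatin genes Prm1, Prm2 and Tnp1, were at 0 counts in all mice, and the list summed to at most 0.954 CPM.

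Subunit 4 is the first nuclear-encoded subunit to join the complex during assembly and a site where ATP regulates its activity, and its pair had the smallest difference between genotypes. Cox4i1, the broadly expressed isoform, was at 2473, 2305 and 2154 CPM in wild-type mice and 1266, 1477 and 1541 CPM in Letmd1 KO mice. The groups did not overlap and the mean was 1.62-fold lower (2311 ± 160 to 1428 ± 144 CPM; log2 fold change -0.69, standard error 0.14), but under quantile normalization the direction was not kept, the log2 fold change being 0.11. The exons of Cox4i1 overlap those of Emc8 on the opposite strand, which was far less abundant at 68.8 ± 3.61 CPM in wild-type and 48.7 ± 0.66 CPM in Letmd1 KO BAT. Cox4i2, the isoform of lung and of oxygen-sensing cells including vascular mural cells, had 30, 25 and 47 counts in wild-type and 20, 31 and 54 in Letmd1 KO mice. Its CPM overlapped between genotypes (4.0 ± 1.86 and 3.16 ± 0.95), and the log2 fold change of -0.34 had a standard error of 0.41 and turned to 0.08 without wild-type replicate 3 and to 0.09 with library size scaling. The difference in Cox4i2 was smaller than the spread between mice and not detectable at this depth. Its share of the pair was 0.131%, 0.115% and 0.284% in wild-type and 0.173%, 0.277% and 0.206% in Letmd1 KO mice, which also overlapped. Mural cell markers summed to 376 to 408 CPM in wild-type and 375 to 404 CPM in Letmd1 KO BAT. Of the 10, 2 were lower (Rgs5 and Kcnj8), 2 higher (Acta2 and Cspg4) and 6 did not pass the test. These counts lay near the background of 22.3% lower and 23.7% higher over all genes tested.

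**Figure D3:**
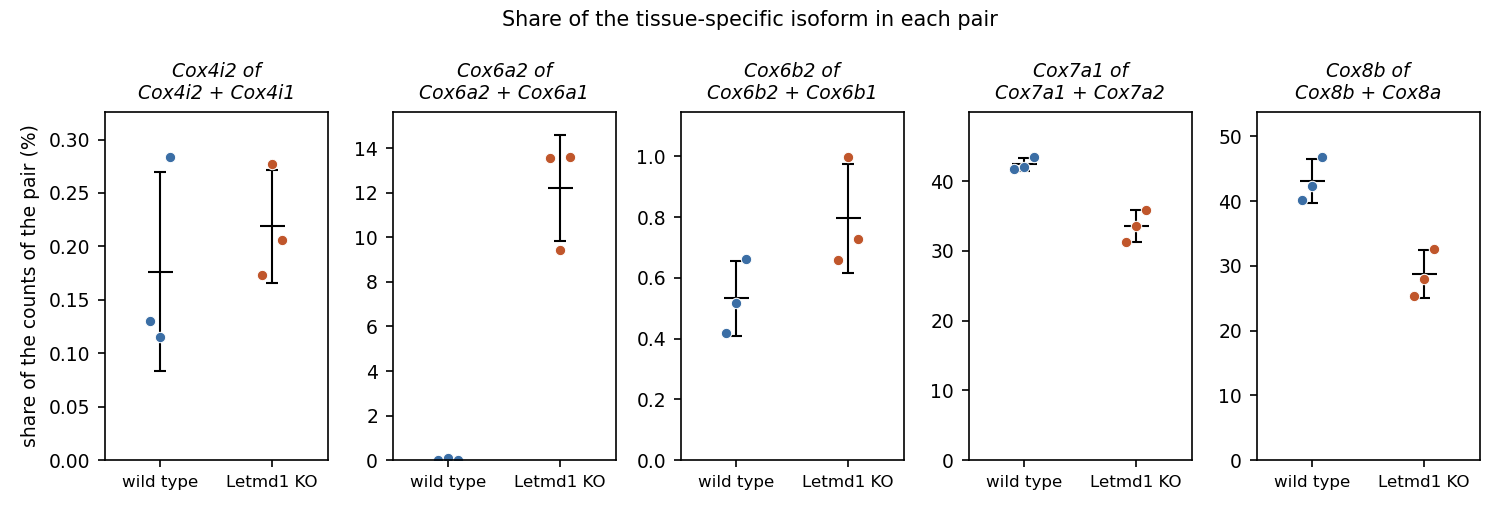
Share of the tissue-restricted isoform in the counts of its pair, in percent, for each of the 5 pairs, with 1 point per mouse and bars at the mean ± SD of the 3 mice of each genotype, each pair on its own axis from 0. The shares of Cox7a1 and Cox8b were lower in each Letmd1 KO mouse than in any wild-type mouse, that of Cox6a2 was higher, and those of Cox4i2 and Cox6b2 overlapped.

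Summed over both isoforms on the TMM scale, the Letmd1 KO mice lay below the wild-type mice for every pair, although the subunit 4 pair is nearly all Cox4i1, whose direction quantile normalization turned. The subunit 6b pair was 3.21-fold lower (3464 ± 111 to 1078 ± 129 CPM), the subunit 8 pair 2.82-fold (5675 ± 268 to 2016 ± 236 CPM) and the subunit 6a pair 2.47-fold (5115 ± 296 to 2075 ± 269 CPM). The subunit 7a pair was 2.05-fold lower (3375 ± 75 to 1647 ± 329 CPM) and the subunit 4 pair 1.62-fold (2315 ± 158 to 1431 ± 145 CPM). The extra Cox6a2 counts thus did not bring the subunit 6a pair to its wild-type level. The pair totals of a complex that holds each subunit in a fixed number differed among themselves, from the highest in the subunit 8 pair to the lowest in the subunit 4 pair in wild-type mice.

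The other nuclear subunits of complex IV gave a comparison outside the chosen pairs, and the paralogs of Cox7b and Ndufa4 are listed separately after them. All 6 of 6 were lower in Letmd1 KO BAT by edgeR's quasi-likelihood test, against 22.3% of all 12995 genes tested. Their median log2 fold change was -1.36, against 0.03 over all genes tested. The lowest were Cox6c, at -1.77 (adjusted p = 3.0e-05), and Ndufa4, at -1.59 (adjusted p = 1.8e-05). Cox7b was at -1.43, Cox5a, the subunit to which thyroid hormone metabolites bind, at -1.28, and Cox7c at -1.27. Cox5b, a zinc-binding subunit, was at -0.93 (adjusted p = 0.000771), a call that was lost under quantile normalization at -0.18. The median over the 10 members was -1.14, and the members other than Cox6a2 spanned -2.07 to -0.34.

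**Figure D4:**
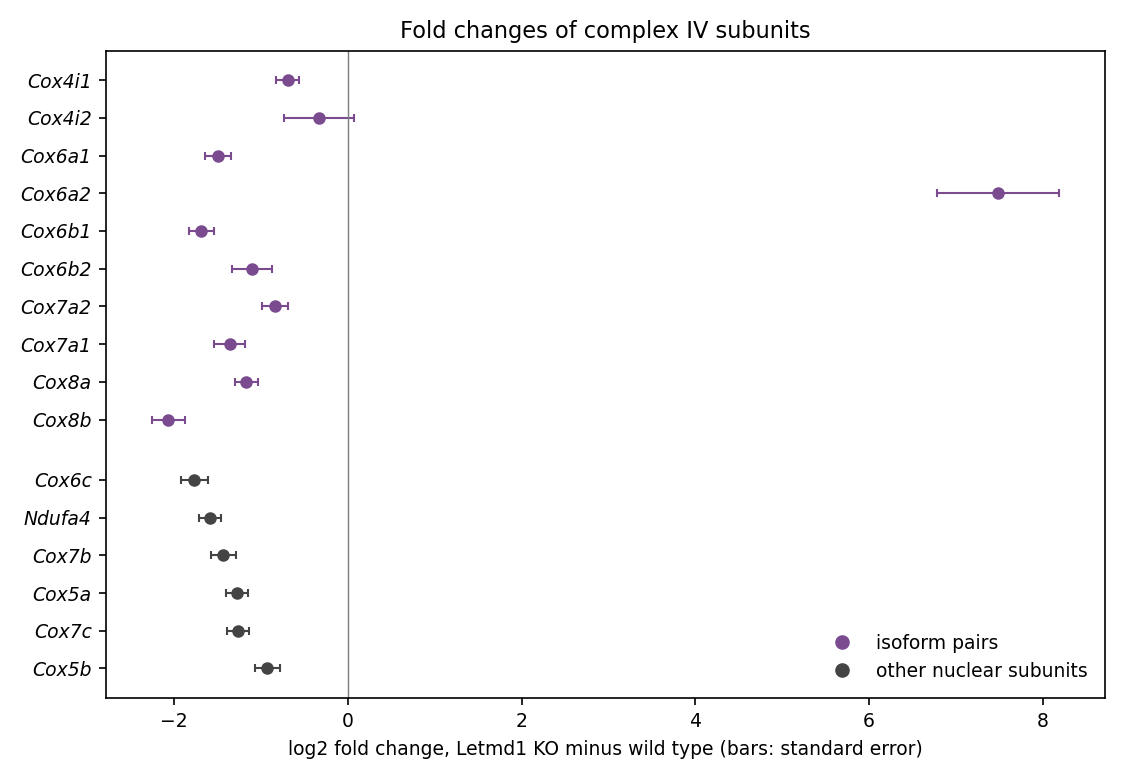
Log2 fold change of each complex IV subunit gene, Letmd1 KO minus wild type, with bars of 1 standard error, for the 10 isoform genes and for 6 other nuclear subunits. Cox6a2 stands alone at 7.48, and the 6 other subunits lie between -1.77 and -0.93.

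Genes related to complex IV subunits but outside the pairs did not move together. Of 5 such paralogs, Cox7b2 and Cox8c had no counts. Cox7a2l, which links complexes III and IV in supercomplexes, was lower with a log2 fold change of -0.60 (adjusted p = 0.00287 by edgeR), although the call was lost with library size and quantile scaling. Ndufa4l2 was at 0.07 (adjusted p = 0.806). AA467197, a small mitochondrial protein related to NDUFA4, had 9, 2 and 5 counts in wild-type and 22, 24 and 17 in Letmd1 KO mice (log2 fold change 1.78, adjusted p = 0.0471). Its call was lost in 8 of the alternatives run. The gene passed the filter on low counts only because of its counts in the Letmd1 KO mice.

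Assembly factors, which insert haem and copper and guide the subunits into the complex, were mostly lower. Of 29 listed, 28 were in the files and tested. Among these, 21 were lower, against 22.3% of all genes tested, and 7 did not pass. The median log2 fold change of the 28 was -0.78. Library size scaling left 13 lower. Pet100 was at -1.91 (adjusted p = 5.7e-05) and Taco1, a translational activator of the mitochondrially encoded subunit 1, at -1.38 (adjusted p = 0.000877). At the other end, Surf1, a haem insertion factor, was at -0.27 (adjusted p = 0.0933) and Tmem177 at -0.06 (adjusted p = 0.845). Both tested genes of the substrate, cytochrome c, were lower, with the same 22.3% as background. Cycs, somatic cytochrome c itself, fell from 1108 ± 25.8 to 443 ± 70.2 CPM (log2 fold change -1.32, adjusted p = 7.8e-05), and Hccs, which attaches its haem, was at -0.58 (adjusted p = 0.0196), a call lost without wild-type replicate 2, without Letmd1 KO replicate 2 and with library size scaling. Cyct, the testis cytochrome c, had 0 counts.

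Among 15 regulators of complex IV genes the directions were mixed. By edgeR 4 were lower, 3 higher and 8 did not pass, with a median log2 fold change of -0.14. Over all genes tested 22.3% were lower and 23.7% higher, so these counts lay near the background. Epas1, the hypoxia-inducible factor 2 subunit, was at -1.18 (adjusted p = 4.0e-05) and Ppargc1b, a coactivator of mitochondrial biogenesis, at -1.08 (adjusted p = 0.000601). Chchd2 and Esrra, the estrogen-related receptor whose motif was searched above, were the remaining lower genes, at -0.94 and -0.44. The higher genes were Lonp1, the matrix protease that degrades unassembled COX4 protein, which rose from 167 ± 9.81 to 471 ± 61.4 CPM (log2 fold change 1.49, adjusted p = 2.6e-05), Rbpj at 1.09 (adjusted p = 0.000309) and Nrf1 at 0.81 (adjusted p = 0.00786). Ppargc1a, at -0.52, did not pass (adjusted p = 0.0906), nor did Gabpa at 0.07 (adjusted p = 0.734).

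Genes with the closest profile to the members were sought among 11913 genes by the root mean square difference of log2 CPM over the 6 mice, after the wild-type mean of each gene was subtracted. For 8 members, Cox4i1, Cox4i2, Cox6a1, Cox6b2, Cox7a1, Cox7a2, Cox8a and Cox8b, the closest gene lay within 0.04 to 0.16 log2 units. The closest were Ndufb8 for Cox6a1 (0.04), Atp5sl for Cox7a2 (0.04), Cog6 for Cox4i1 (0.04), Tecpr1 for Cox8a (0.05), Aspa for Cox7a1 (0.07), 2610507I01Rik for Cox6b2 (0.08) and Ldhd for Cox8b (0.16). Cox4i2, with few counts, was nearest to Zfp395 at 0.13. Cox6a2 had no close profile, the nearest being Akr1b7 at 1.40 and Mmp12, a macrophage metalloelastase, at 1.41. With 1, 37 and 0 wild-type counts, the wild-type part of the Cox6a2 profile rests on few counts, nearly all from replicate 2. Akr1b7 and Mmp12 were at wild-type means of 0.071 and 0.035 CPM, too low to be resolved. With 6 mice in 2 groups, a small distance mostly reflects a fold change of like size.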

How the data were processed

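RNA of interscapular BAT from 6 mice was sequenced from the 3′ end with the QuantSeq kit as single-end reads of 75 bases. The authors aligned reads with Bowtie2 and deposited raw counts per gene symbol for each mouse, which per the labels came from bedtools coverage on mm10, and unique and multiple alignments both entered these counts. The annotation, the tool versions and the use of strand are not given in the sources used here. Counts were filtered (minimum count 10, minimum total 15), scaled by TMM and tested with edgeR 4.0.16 (quasi-likelihood, R 4.3.3, Benjamini-Hochberg over 12995 genes, threshold 0.05), a procedure tested on simulated data. The authors normalized by quantiles, which was run as an alternative with limma 3.58.1, as was DESeq2 1.42.0. Standard errors are the absolute log2 fold change divided by the square root of F. Isoform log2 ratios used a pseudocount of 0.5. Members and gene lists were chosen with earlier results of these data known. Named genes were all members, and genes from short lists, from the 2 lowest and 2 highest tested genes of longer lists and from the nearest profiles. Some genes under this rule, among them macrophage, skeletal muscle, cardiac and testis markers, were left unnamed. Fabp4, Nrf1, Chchd2, Esrra, Ppargc1a, Gabpa, Tnnt1, Acta1, Itgad and Emc8 were named after their values were seen. Mice are labelled as separate samples. Chi-square tests found no library deposited more than once. The nearest profile of Cox6b1 is not reported here.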

Additional observations from a re-analysis of the deposited data

How the results depend on the processing

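Over 129 recomputed fold changes of the members, 125 kept their direction and 4 reversed. Cox4i1 reversed to 0.111 and Cox7a2 to 0.0073 under quantile normalization. Cox4i2 reversed to 0.0867 with library size alone and to 0.0814 without wild-type replicate 3. Its range was -0.582 to 0.0814 with 1 mouse left out, and -0.586 without wild-type replicate 2 and Letmd1 KO replicate 3 together. Of the 125, 106 stayed within 1 SD between mice and 19 moved by more. TMM factors were 0.852 to 0.886 in wild-type and 1.135 to 1.168 in Letmd1 KO mice. Library size alone shrank the log2 fold changes of Cox4i1 to -0.27, Cox6a1 to -1.07, Cox6b1 to -1.27 and Cox6b2 to -0.68. Those of Cox7a1 shrank to -0.94, Cox7a2 to -0.41, Cox8a to -0.75 and Cox8b to -1.65, while Cox6a2 rose to 7.90. Quantile normalization shrank the log2 fold changes of Cox6a1 to -0.54, Cox6b1 to -0.86, Cox7a1 to -0.73, Cox8a to -0.35 and Cox8b to -1.41. It gave larger ones for Cox4i2 (-0.76), Cox6b2 (-1.32) and Cox6a2 (8.05). Leaving out 1 mouse at a time, the log2 ratio differences ranged from 0.16 to 0.81 for Cox4i2 to Cox4i1, 9.82 to 12.73 for Cox6a2 to Cox6a1, 0.41 to 0.76 for Cox6b2 to Cox6b1, -0.62 to -0.47 for Cox7a1 to Cox7a2 and -1.06 to -0.80 for Cox8b to Cox8a. A pseudocount of 2 gave 9.96 and summed counts 9.01 for Cox6a2 to Cox6a1. Called paralogs numbered 2, but 1 with library size alone, with no filter, when genes under a mean of 50 counts were dropped, and with the replicate block, 0 with quantile normalization, and 1 to 2 without 1 mouse. Lower assembly factors numbered 21 but 13 with library size alone (17 to 23 without 1 mouse), and cytochrome c genes 2 but 1 with library size alone (1 to 2 without 1 mouse). Leaving out wild-type replicate 2 and Letmd1 KO replicate 3 together, chosen after seeing the data, gave 3889 called genes against 5978 (4842 to 5868 without 1 mouse), 1 paralog and 1 cytochrome c gene. The cause of these changes was not tested.

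No pairing of the mice by replicate number was seen: deviations of same-numbered mice correlated at 0.07, -0.11 and -0.09. Mice of different numbers correlated at -0.09 to 0.19, the highest being wild-type replicate 2 with Letmd1 KO replicate 3. With so few mice such values cannot exclude a pairing. With the replicate number as a block, 5599 genes were called, the paralog call of AA467197 was lost, and the isoform ratio differences were the same by construction. Levels below 0.18 to 0.40 CPM, the level of 3 counts, could not be resolved, which limits wild-type Cox6a2 most.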
